A study of Homo sapiens with 4 samples.

Results

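The baseline open chromatin of control LM2 cells was read from 2 ATAC-seq libraries, Control_Rep1 and Control_Rep2, chosen by their non-targeting guide from the 4 libraries of the series. LM2 is a breast cancer line derived from MDA-MB-231, a triple-negative line, and selected for raised metastasis to the lung. It was grown as a monolayer in DMEM with serum, penicillin and puromycin, and each library started from 50000 cells. Both groups of the series share this background, and the labels set them apart by genotype, a non-targeting control or a CECR2 deletion (sg1). No clone number, passage or culture day is given, so the spread between the 2 control libraries may be technical. All values below come from the control pair, no value is compared with sg1, and no test was made with 1 group of 2 samples.

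ATAC-seq uses a transposase that cuts DNA where nucleosomes leave it exposed, so many cuts at a site mark accessible chromatin. Active promoters and enhancers are usually accessible, while genes of other lineages are usually covered by nucleosomes or repressive proteins. MDA-MB-231 cells are known for mesenchymal features, mutant RAS and RAF signalling and constitutive NF-kB activity. NF-kB and AP-1 are the transcription factor families through which inflammatory and growth signals reach promoters of cytokine genes. Accessibility shows that a site can be reached. It does not measure transcription, and in a bulk sample the share of cells with an open site and the degree of opening per cell cannot be told apart.

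The deposited table listed 190348 peaks, and 190239 remained after the 109 peaks at the start of chromosome 1 (starts under 250000) were dropped. The kept counts were 21002477 in replicate 1 and 15561701 in replicate 2, with medians of 35 and 26 counts per peak. Levels are counts scaled to 1000000 kept counts per library (CPM), and CPM per kb divides by peak length, which is the scale used below to compare genes. Pairs of values are given as replicate 1, then replicate 2, so that the spread can be read from them, and a single CPM per kb value is the mean of the 2 samples. A gene is called open where the tallest peak within 1 kb of a start site reached 1 CPM in both samples, strongly open at 10 CPM in both, and low where a listed peak stayed under 1 CPM in at least 1 of them. Peaks were merged over control and sg1 libraries, so a low control peak may have been listed for its sg1 signal, and a place with no listed peak is not a count of 0. Of 20056 protein-coding genes, 69.0% were open, 51.0% were strongly open and 27.2% had no listed peak, and genes with a peak had medians of 17.4 CPM and 16.8 CPM per kb. These 3 shares are the background for every list below. Start sites came from a RefSeq table for 15842 genes. The remaining 4214 genes, marked below as read at either end, were searched at both ends of the gene record, since no start or strand was at hand for them.

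The letters upstream of 6 inflammatory genes are shown first, so that the letters at the start of open genes can be set beside those of genes with no start peak. CXCL8, IL6, CXCL2 and TNFAIP3 were strongly open at their starts, whereas CCL20 and TNF had no listed peak within 1 kb of theirs. Each line gives the 250 bases before a RefSeq start (GRCh38.p14), 5′ to 3′ along the gene's strand. Capitals mark an AP-1 word (TGANTCA), an NF-kB word (GGGA and TTTCC with 1 base between them) or a TATA box (TATAAA), searched on both strands. None of these words contains another.
CXCL8, chr4:73740319-73740568, plus strand: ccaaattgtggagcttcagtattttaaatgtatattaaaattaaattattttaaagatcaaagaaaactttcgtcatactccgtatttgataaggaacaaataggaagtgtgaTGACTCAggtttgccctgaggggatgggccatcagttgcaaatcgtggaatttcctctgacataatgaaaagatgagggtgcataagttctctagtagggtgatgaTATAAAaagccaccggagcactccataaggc
IL6, chr7:22726950-22727199, plus strand: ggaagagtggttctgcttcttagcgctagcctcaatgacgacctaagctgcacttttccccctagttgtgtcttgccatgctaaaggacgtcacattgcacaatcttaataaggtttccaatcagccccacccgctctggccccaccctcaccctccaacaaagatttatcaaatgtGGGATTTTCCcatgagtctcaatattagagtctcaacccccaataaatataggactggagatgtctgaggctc
CXCL2, chr4:74099196-74099445, minus strand: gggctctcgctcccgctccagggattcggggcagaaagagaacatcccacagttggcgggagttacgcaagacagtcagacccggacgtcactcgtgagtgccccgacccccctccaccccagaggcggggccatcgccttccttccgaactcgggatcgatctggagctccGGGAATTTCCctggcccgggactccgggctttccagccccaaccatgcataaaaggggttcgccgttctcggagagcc
TNFAIP3, chr6:137867009-137867258, plus strand: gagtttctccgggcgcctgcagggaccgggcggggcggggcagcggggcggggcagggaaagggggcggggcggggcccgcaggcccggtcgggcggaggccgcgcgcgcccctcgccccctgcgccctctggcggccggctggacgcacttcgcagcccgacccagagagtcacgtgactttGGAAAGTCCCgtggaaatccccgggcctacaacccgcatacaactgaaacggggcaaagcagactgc
CCL20, chr2:227813592-227813841, plus strand: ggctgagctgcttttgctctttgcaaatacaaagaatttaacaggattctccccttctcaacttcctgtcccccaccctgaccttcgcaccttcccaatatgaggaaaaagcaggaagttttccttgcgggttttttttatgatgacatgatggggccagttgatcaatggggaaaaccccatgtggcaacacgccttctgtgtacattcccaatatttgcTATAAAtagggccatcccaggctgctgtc
TNF, chr6:31575315-31575564, plus strand: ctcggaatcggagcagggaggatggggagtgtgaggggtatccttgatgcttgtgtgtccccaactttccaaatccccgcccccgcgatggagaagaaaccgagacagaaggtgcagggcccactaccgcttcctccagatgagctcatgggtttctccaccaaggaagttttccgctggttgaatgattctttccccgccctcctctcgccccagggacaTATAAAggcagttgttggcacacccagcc
The CXCL8 window held an AP-1 word 137 bases and a TATA box 31 bases before the start. IL6, CXCL2 and TNFAIP3 each held an NF-kB word, 73, 78 and 67 bases before their starts. CCL20 and TNF both held a TATA box 29 bases before the start, and neither window held the AP-1 or NF-kB word in this spelling. The starts of CSF2, IL1B, TRAF1, VIM and GNAI2 were strongly open as well, and their windows, not shown, held none of these words. The genes shown therefore do not tie a word to an open start. Over 15472 gene starts, 5.14% of windows of this length held the AP-1 word, 0.543% the NF-kB word and 9.13% the TATA box. A matching word is a description of the letters, and a window without it says only that these letters are absent there.

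Genes that characterise mesenchymal cells were mostly open in control LM2. Of 25 mesenchymal genes, 22 were open and 15 strongly open, and their median was 18.9 CPM per kb against 16.8 over all genes. VIM, which encodes the intermediate filament vimentin, had 83.6 and 84.6 CPM at chr10:17228066-17229655. A second VIM peak just past the gene end, chr10:17237996-17239324, had 50.9 and 58.5 CPM. CAV1, the coat protein of caveolae, reached 45.9 and 52.1 CPM, and its level of 59.3 CPM per kb lay above that of VIM at 52.9 CPM per kb in both samples. CALD1, an actin-binding protein, followed at 49.5 CPM per kb, and AXL, a receptor tyrosine kinase of invasive cells, at 34.9 CPM per kb. The AXL peak is centred 6.83 kb past the 5′ end of its record, and the peak at that end had 25.1 CPM per kb. The transcription factors that drive the transition to a mesenchymal state sat lower. ZEB1 had 16.9 and 19.3 CPM, ZEB2 6.09 and 5.53, SNAI2 6.48 and 7.65, and SNAI1 7.38 and 8.23, the SNAI genes read at either end. COL6A2 and CDH11 (read at either end) were the lowest open members, at 4.83 and 4.16 CPM per kb. TWIST1 (read at either end), TWIST2 and CDH2 had no listed start peak. CDH2, which encodes N-cadherin, nevertheless carried an intronic peak of 32.1 and 33.7 CPM at chr18:28114950-28115653, whereas the 2 peaks around TWIST1 summed to 1.76 and 0.514 CPM.

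Epithelial genes were mostly listed as open too, at lower levels. In the list of 26, 23 were open and 11 strongly open, with a median of 9.2 CPM per kb. KLF5, a transcription factor of epithelial progenitors, had 45.7 and 43.4 CPM, and KRT8, a keratin of simple epithelia, 31.9 and 31.6 CPM. ESRP2, an epithelial splicing regulator read at either end, had 31.4 and 38.7 CPM. GRHL3 had 24.9 CPM per kb, above the 5.84 of GRHL2 (read at either end) in both samples. GRHL2 is the family member known as a keeper of epithelial identity. CDH1, the gene of E-cadherin, was at the low end with 0.381 and 0.835 CPM at its ends. Within 10 kb of the CDH1 gene record, 21 peaks were listed, 9 of them open, and the tallest had 11.7 and 13 CPM at chr16:68843369-68844351. MAL2 (read at either end) and the claudin genes CLDN7 and CLDN4 were open at small levels, with 2.12, 4.02 and 4.93 CPM per kb. OVOL1 and RAB25 had no listed peak at the positions read.

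Luminal breast genes showed the same split between being listed and being high. Of 18, 15 were open but only 4 strongly open, and the median was 8.42 CPM per kb. ESR1, which encodes the oestrogen receptor that MDA-MB-231 is known to lack, had 6.71 and 8.87 CPM at its tallest start peak. Its 21 open peaks over the gene and 10 kb to each side included 1 of 23.5 and 21.5 CPM at chr6:151763735-151764328. FOXA1, a pioneer factor of luminal cells, had 11.4 and 8.42 CPM, and GATA3, the luminal master regulator, 5.09 and 4.37 CPM. The highest members were ERBB3 (read at either end), ERBB2 and XBP1 at 42.7, 24.3 and 22.5 CPM per kb. ERBB3 and ERBB2 shared their peaks with the start windows of PA2G4 and PGAP3. PGR and TFF3 were lowest among members with a peak, at 3.74 and 1.59 CPM per kb, and TBX3, read at either end, had none. The basal and myoepithelial list was more divided, with 14 of 23 open and 11 strongly open. LAMB3, a laminin chain of epithelial basement membranes, was highest at 32.1 CPM per kb, and EGFR, the growth factor receptor typical of basal tumours, had 19.2 and 18.3 CPM. Its keratins sat lower: KRT17 (read at either end) had 5.95 and 4.69 CPM, KRT5 had 1.1 and 0.835 CPM and KRT14 (read at either end) 0.619 and 0.643 CPM. KRT6A, KRT6B, SOX10, CNN1, VGLL1 and MME had no listed peak at the positions read.

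**Figure D1:**
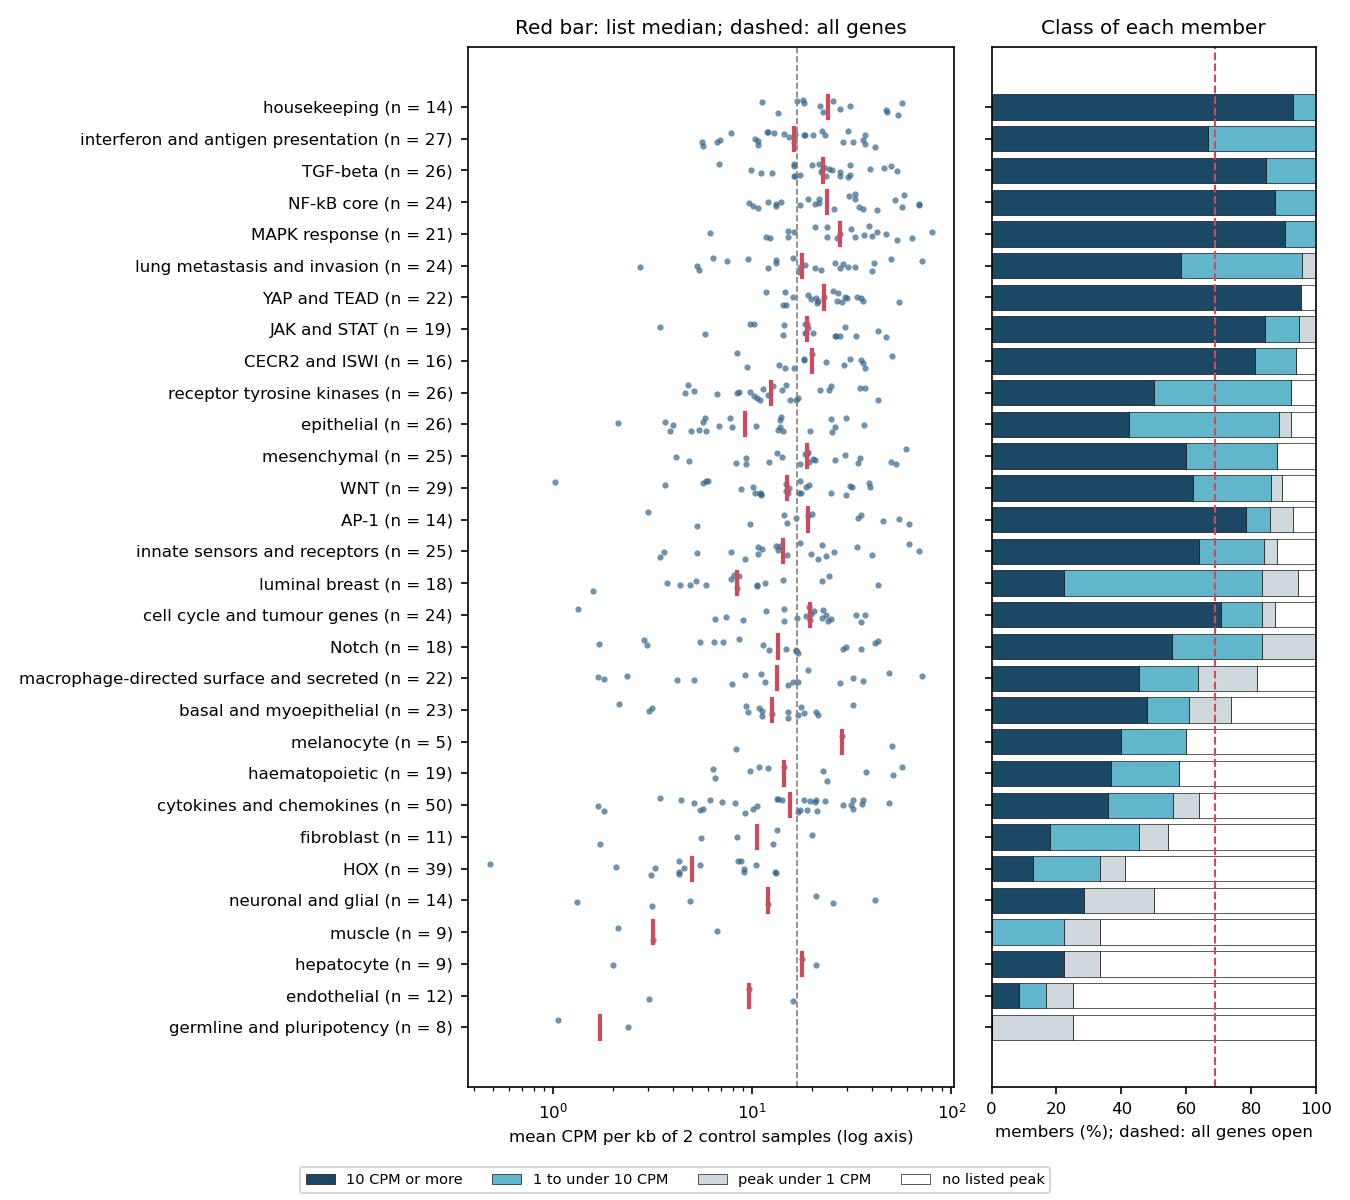
Levels and classes of the 30 gene lists in control LM2. On the left, each point is 1 member with a peak (mean CPM per kb of 2 samples, log axis), red bars are list medians and the dashed line is the median over all genes; on the right, bars give the share of members in each class and the dashed line the 69.0% of all genes that were open. Lists are ordered by open share: all members of the housekeeping, interferon, TGF-beta, NF-kB and MAPK response lists were open, and the germline list at the bottom had 0 open.

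Markers of other cell types were read at their starts and over the surrounding 10 kb. None of 8 germline and pluripotency genes was open: POU5F1 had 0.524 and 0.193 CPM, SALL4 0.333 and 0.193, and NANOG, DPPA4, DDX4, DAZL, SYCP3 and LIN28A had no listed peak at the positions read. In the endothelial list 2 of 12 were open, ESAM (read at either end) at 28.4 and 28 CPM and KDR, the VEGF receptor, at 10.8 and 9.12 CPM, while CDH5, PECAM1, TEK and VWF had no listed peak at the positions read. Open peaks lay over or within 10 kb of 11 of the 12 endothelial genes, SOX17 being without. This is near the background, since only 11.9% of all genes had no such peak. The median, not adjusted for gene length, was 5.5 such peaks against 3 over all genes. The angiopoietin receptor gene TEK had 12 of them, and PECAM1, an adhesion molecule of endothelial cells, also 12. Muscle genes were open in 2 of 9 and hepatocyte genes in 2 of 9, and MYOD1, MYOG, ALB and HNF4A had no listed peak at the positions read. Of these, MYOD1 and HNF4A had 2 and 6 open peaks over the gene and its flanks, and MYOG and ALB 0. In the neuronal and glial list 4 of 14 were open, with TUBB3, a tubulin of neurons, highest at 41.1 CPM per kb. In the melanocyte list 3 of 5 were open, 2 of them strongly, and the median of the 3 with a peak was 28.3 CPM per kb. That was the highest of the 30 lists on this scale only. In CPM the melanocyte median was 25.5, below the 31.9 of the NF-kB list, among others. DCT, a melanin synthesis enzyme, had 83.7 and 72.1 CPM at chr13:94548795-94550336, MITF, the master regulator of melanocytes, 25.6 and 25.4 CPM, and PMEL (read at either end) 11.5 and 9.70 CPM. TYR and MLANA had no listed peak at the positions read. The haematopoietic list, with markers of the blood cells that a tumour sample could hold, was open in 11 of 19. LAPTM5, a lysosomal membrane protein of blood cells, had 49.3 and 49.6 CPM, CD68, a lysosomal protein that marks macrophages, 46.1 and 49.2 CPM, and CSF1R, the receptor for colony stimulating factor 1, 25.1 and 24.7 CPM. The T cell genes CD3E (read at either end) and CD8A had 33.3 and 29.6 CPM and 24.9 and 21.0 CPM. PTPRC (CD45), ITGAM, IKZF1, CD79A and GATA1 had no listed start peak. PTPRC carried peaks within its body, the tallest with 17.5 and 15.8 CPM at chr1:198668831-198669498, and GATA1 had 3 open peaks over the gene and its flanks. In the fibroblast list 5 of 11 were open, COL1A1 (read at either end) highest at 19.8 CPM per kb. For comparison, all 14 housekeeping genes were open, 13 of them strongly, with a median of 23.9 CPM per kb.

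HOX genes, which encode positional identity in 4 clusters, were open in 13 of 39, and 5 were strongly open. The median over members with a peak was 5.01 CPM per kb. HOXD1 had 24.7 and 25.4 CPM, HOXB9 (read at either end) 21.3 and 21.7 CPM, HOXA13 14 and 13.4 CPM, and the peak shared by HOXD3 and HOXD4 12.4 and 13.5 CPM. In the HOXC cluster a single peak of 2.33 and 3.41 CPM stood for HOXC4, HOXC5 and HOXC6. No peak was listed for 23 HOX genes. Of the HOX starts without a peak that had a sequence, 12 were rich in CpG dinucleotides (a C followed by a G), as most open starts were. Over all genes, 1585 of 4022 starts without a peak were CpG-rich.

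Signalling genes downstream of growth factors were open almost without exception. All 21 MAPK response genes were open and 19 strongly open, with a median of 27.7 CPM per kb. EGR1, an immediate early transcription factor, had 96.6 and 95.7 CPM, and the ETS factor ETV5 (read at either end) was highest per length at 80 CPM per kb. Among feedback inhibitors of ERK signalling, DUSP6 had 37.4 and 37.8 CPM, SPRY2 34 and 33 CPM, and DUSP2 was the lowest of the list at 4.33 and 5.01 CPM. The EGF family ligands HBEGF, TGFA, EREG and AREG had 26.7, 23.7, 20.7 and 11.7 CPM per kb. In the AP-1 list, 12 of 14 were open. FOSL1, the FOS family member typical of invasive breast cancer cells, was read at either end. The tallest peak at its ends, with 112 and 114 CPM, is shared with the start of CCDC85B. The peak at its other end, chr11:65899955-65900819, had 35.7 and 35 CPM, and which end is the start was not at hand. JUN had 44.7 and 41.8 CPM, JUNB 35.9 and 37.9, and FOS 35.5 and 36.9. BATF and MAFK were lowest per length, at 3.01 and 5.26 CPM per kb. ATF3, a stress-induced factor, had no listed peak within 1 kb of the starts read, but 17 peaks over the gene and its flanks, the tallest with 45.8 and 43.3 CPM at chr1:212607926-212609097.

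YAP and TEAD genes, the effectors and targets of the Hippo pathway, were open in 21 of 22, each of them strongly. The coactivators YAP1 and WWTR1 had 39 and 42.1 CPM and 39.6 and 44 CPM, and the classic targets CCN1, CCN2 and ANKRD1 had 33.7, 29.9 and 35.2 CPM per kb. DLC1, read at either end, had no listed peak there. All 26 TGF-beta genes were open and 22 strongly open. The receptors TGFBR1 and TGFBR2 had 45.7 and 53.1 CPM per kb, the ligands TGFB2 and TGFB3 25.2 and 23.4 CPM per kb, and TGFB1 11 CPM per kb. SMAD4, the shared partner of the signalling SMADs, was lowest at 6.78 CPM per kb. In the WNT list 25 of 29 were open, and in the Notch list 15 of 18. Among WNT receptors FZD4 had 56.5 and 56.3 CPM and FZD8 49.3 and 54.1 CPM, and SFRP1, DKK3 and FZD10 had no listed peak at the positions read. NOTCH1 and NOTCH2 had 16.5 and 14.7 CPM per kb, while NOTCH3 had 0.476 and 0.9 CPM and NOTCH4 0.19 and 0.321 CPM. Receptor tyrosine kinases were open in 24 of 26 at a median of 12.4 CPM per kb, below that of all genes. MET had 37 CPM per kb, above the 16.9 of EGFR in both samples, and NTRK2 was lowest at 4.61 CPM per kb. DDR2 and ROR2 had no listed start peak.

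The NF-kB machinery was open throughout. All 24 members were open and 21 strongly open, at a median of 23.7 CPM per kb. Among the subunits, NFKB2 had 51.7 and 52.5 CPM, NFKB1 31 and 33, REL 21.5 and 21.7, RELA 17.3 and 18.6, and RELB (read at either end) 16.7 and 16.3. TRAF1, an adaptor of TNF receptors, had 66.2 and 68.4 CPM, and BIRC3, an inhibitor of apoptosis, 57.5 and 50.6. The inhibitors that restrain NF-kB were open too: NFKBIB, which shares its peak with SIRT2, at 66.1 and 65.9 CPM, NFKBIA at 44.2 and 45.9 CPM, and TNFAIP3, which encodes the deubiquitinase A20, at 23.9 and 18.8 CPM. TRAF3 had the lowest count level, 5.43 and 6.04 CPM, and BCL3 the lowest per length, 9.65 CPM per kb. TNIP1, which encodes a binding partner of A20, lay in a dense region: 27 peaks over the gene and 10 kb to each side summed to 447 and 437 CPM, against a median of 34.5 CPM over all genes. The tallest of them, chr5:151093402-151095147, had 103 and 99 CPM. In the receptor list 21 of 25 were open, led by IL1RAP, the accessory chain of the IL-1 receptor, at 64.6 and 63.5 CPM. MYD88, the adaptor of IL-1 and Toll-like receptors, had 54.4 and 59 CPM, NLRP3, an inflammasome sensor, 44.2 and 47.7, and TLR4 32.5 and 34.7. TLR1 and TNFRSF1B were lowest, at 3.45 and 3.61 CPM per kb, and TLR9, IL1RL1 and CASP1 had no listed peak at the positions read. JAK and STAT genes were open in 18 of 19. STAT3 had 51.3 and 52.8 CPM and IL6ST, the shared receptor chain of the IL-6 family, 49.7 and 48.1, whereas JAK3 had 0.714 and 0.643 CPM.

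Cytokine and chemokine genes ranged from strongly open to no listed start peak. Of 50, 28 were open, including 18 strongly open, 4 were low and 18 had no listed start peak. These are 56% open, against 69.0% of all genes. On the CPM scale the highest were CSF3 (read at either end) with 48 and 45.4 CPM, CXCL2 with 42.8 and 40, and CSF2 with 37.1 and 38.5, genes of granulocyte and macrophage growth factors and of a neutrophil chemokine. CXCL3 had 33 and 36.6 CPM, IL11 33.7 and 33.8, IL6 28.9 and 30.1, CXCL1 20.9 and 21.2, CXCL8 19 and 19.9, IL1B 17 and 14.6, and CSF1 (read at either end) 21.1 and 18.1. Per length the order differed: CSF3 led with 48.3 CPM per kb, CSF2 at 35.8 and CXCL8 at 35.6 followed with overlapping sample values, and CXCL2 had 31.3. The CXCL8 start peak is only as wide as chr4:73740320-73740865, and that of CXCL2 spans chr4:74098598-74099919. IL1A, the neighbour of IL1B, had 2.57 and 2.7 CPM at its start. CXCL10, a target of interferon, had 1.29 and 0.45 CPM, CCL5 (read at either end) 0.905 and 1.74, and CCL2 (read at either end) 0.286 and 0.257. No start peak was listed for TNF, IL10, IL33, IFNB1, IFNG, CXCL5, CXCL6, CXCL9, CXCL12, CCL3, CCL4, CCL7 or CCL20, among others. CC chemokine genes as a family, chosen by symbol after values were seen, were open in 4 of 28 and strongly open in 0, and CXC chemokine genes in 7 of 14, 4 of them strongly.

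Several inflammatory genes without a start peak had strong accessibility nearby. CCL20, a chemokine for CCR6-bearing cells, had no peak within 1 kb of its start, yet chr2:227817894-227819182, just past its far end, held 81.1 and 78.2 CPM. LIF, read at either end, had no peak there but 9 open peaks within 10 kb of the gene, the tallest with 33.7 and 29.7 CPM at chr22:30235588-30236346. IL10 had a peak of 28.6 and 31.4 CPM at chr1:206766105-206766934, past its far end. TNF had 14.1 and 17.8 CPM 5.68 kb past its start. IL24 differed in having a start peak, of 1.24 and 1.16 CPM, with a peak of 10.2 and 12 CPM just outside the 1 kb window (centred 1.37 kb past the start) and 1 of 47.3 and 50.4 CPM 6.82 kb before the start. CXCL10, IFNB1, IFNG and CCL2 differed from these: no peak within 10 kb of them reached 1 CPM in both samples. Open genes also carried further peaks. IL6 had 25 and 22.1 CPM at chr7:22717763-22718803, 8.92 kb before its start, and IL1B 27.1 and 25.1 CPM at chr2:112839288-112840024, 2.88 kb before its start, above its own start peak in both samples (35.5 against 20.8 CPM per kb). CXCL2 had 41.8 and 42.2 CPM at a peak 10.3 kb before its start.

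**Figure D2:**
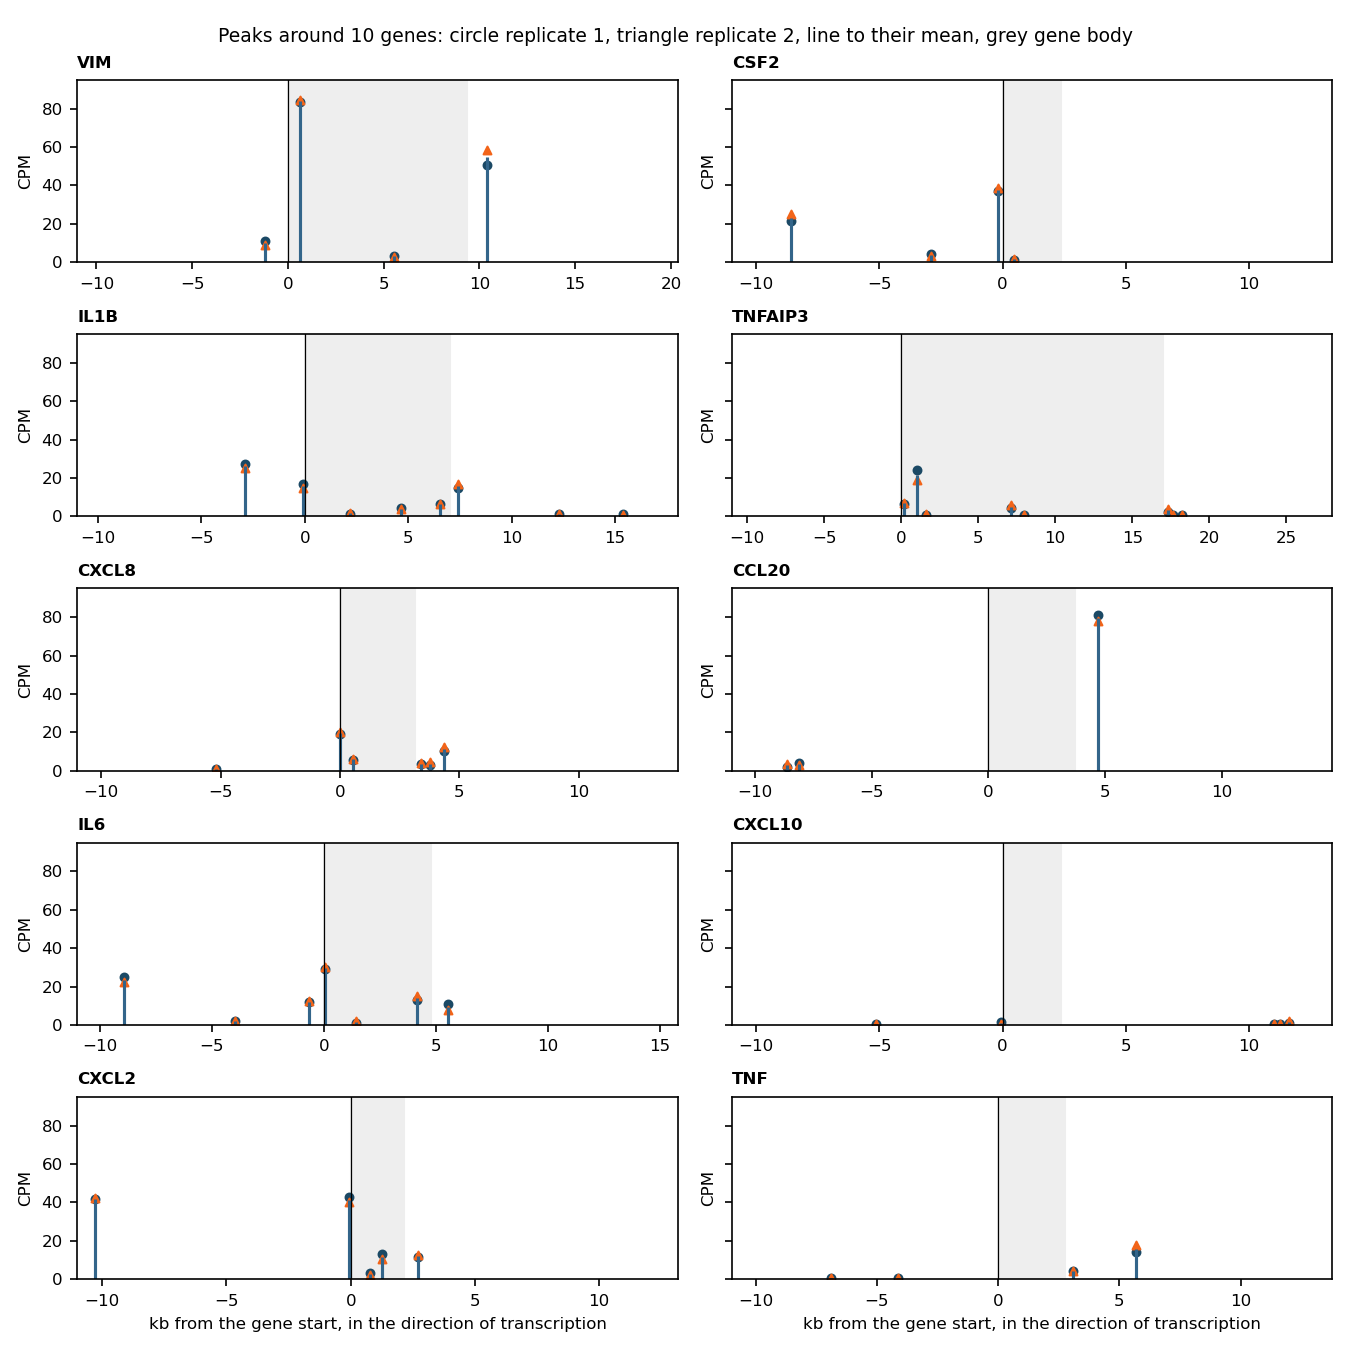
Peaks over 10 genes and the 10 kb to each side, by distance from the gene start (x axis, kb along transcription) and CPM (y axis). Circles are replicate 1, triangles replicate 2, lines reach to their mean and grey marks the gene body; VIM, CXCL8, IL6, CXCL2, CSF2 and IL1B have a tall peak at position 0, CCL20 has its 1 tall peak past the gene end, and CXCL10 stays near 0 throughout.

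All 27 interferon and antigen presentation genes were open, 18 of them strongly, with a median of 16.2 CPM per kb. TAP1 and PSMB9, which load and cut peptides for MHC class I, share 1 peak of 63.2 and 59 CPM. B2M had 22.3 and 24.9 CPM, and IRF1 37.3 and 39.1. OAS1 and HLA-DRA were lowest, at 5.66 and 5.59 CPM per kb. Genes tied to lung metastasis and invasion were open in 23 of 24. PLAU, the urokinase protease, led with 64 and 63.5 CPM, PTGS2, the inducible cyclooxygenase, had 36.1 and 35.9, TNC 35.9 and 29.4, and PLAUR 33.4 and 35.4. The collagenase gene MMP1 (read at either end) had 5.95 and 5.21 CPM, MMP2 0.905 and 1.48, and VCAM1 1.71 and 2.18, with MMP2 also read at either end. NEDD9 showed the widest spread of the high members, with 48.1 and 63.7 CPM. Genes through which tumour cells address macrophages were open in 14 of 22. CD47, the inhibitory signal against phagocytosis, had 18.6 and 18.8 CPM, and CD274, which encodes PD-L1, 7.67 and 7.39. SPP1, IL34 and CCL2 were low, with 0.743, 0.318 and 0.271 CPM on average, and CXCL12 had no listed start peak. CECR2, the target of the deletion in the sg1 arm and an ISWI partner with a bromodomain, had no listed peak within 1 kb of its starts in these cells. Over the gene and its flanks 5 peaks summed to 15 and 13.2 CPM, the tallest with 8.48 and 6.81 CPM at chr22:17528944-17529762. The other 15 genes of the remodeller list were open, with SMARCA5, the ISWI ATPase, at 36 and 36.6 CPM.

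A stretch of chromosome 9 had no listed peak at all. Among cell cycle and tumour genes 20 of 24 were open, including MYC (read at either end) at 54.9 and 53.3 CPM and CDKN1A at 44.7 and 44.5 CPM, but CDKN2A, CDKN2B and MTAP had no peak within 10 kb. These 3 genes lie in a gap between peaks from chr9:20756360 to chr9:24912843, 4.16 Mb long. It was the longest gap that held any protein-coding gene, and the 5 longer ones held 0. The gap held 24 protein-coding genes: 16 interferon genes, IFNB1 among them, and HACD4, KLHL9, DMRTA1, ELAVL2 and IZUMO3 besides the 3 tumour genes. Spans of the same length before and after it held 171 and 129 peaks. Of 21 genes in the gap with a start sequence, 7 had a CpG-rich start, the type that was open in 84.8% of cases genome-wide. As background, MDA-MB-231 is known to carry a deletion of CDKN2A. Missing DNA and shut chromatin cannot be told apart from peak counts, and the edges of the gap are edges of listed peaks.

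**Figure D3:**
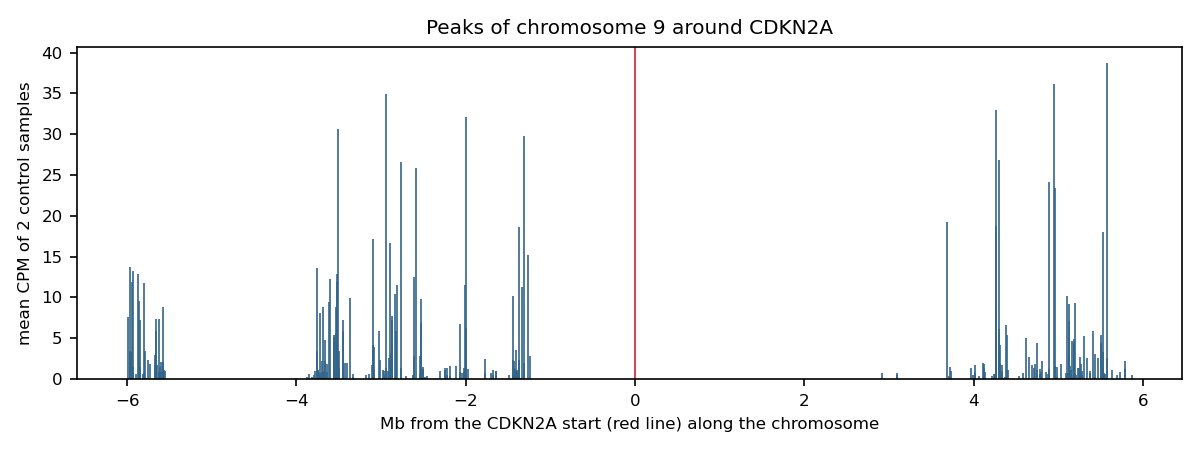
Peaks of chromosome 9 within 6 Mb of the CDKN2A start (red line), by distance in Mb (x axis) and mean CPM of 2 control samples (y axis). Peaks stop 1.24 Mb to the left of the line and begin again 2.92 Mb to the right.

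MicroRNA hairpins tied to the epithelial, mesenchymal and inflammatory states were read at the hairpin itself. The starts of the longer transcripts they are cut from were not read. A hairpin without a listed peak is therefore not shown to be a shut microRNA gene. The list was chosen after peaks had been seen, and a hairpin counts as open where a peak within 1 kb reached 1 CPM in both samples, as 23.5% of 1562 hairpins with a RefSeq position did, while 71.4% had no listed peak. Mature sequences (RefSeq, GRCh38.p14) are shown with the seed, bases 2 to 8, in capitals, because shared seeds define families that repress the same targets.
hsa-miR-21-5p: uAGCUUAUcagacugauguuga
hsa-miR-200b-3p: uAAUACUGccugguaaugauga
hsa-miR-200c-3p: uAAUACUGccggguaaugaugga
hsa-miR-429: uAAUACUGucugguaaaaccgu
hsa-miR-141-3p: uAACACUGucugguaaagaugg
hsa-miR-31-5p: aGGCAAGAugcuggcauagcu
MIR21, an oncogenic microRNA, had 87.6 and 95.6 CPM at chr17:59842259-59844242. The miR-200 family represses ZEB1 and ZEB2 and keeps cells epithelial. MIR200B, MIR200C and MIR429 share the seed AAUACUG and had no listed peak within 1 kb, as most hairpins, with 2, 3 and 1 open peaks within 10 kb. MIR141, which has the other family seed AACACUG, had a peak of 4.81 and 4.56 CPM at chr12:6965108-6965379. MIR200C lies just beside MIR141, and the same peak falls past the edge of the 1 kb window of MIR200C. Both had 3 open peaks within 10 kb, so these hairpins differ only by where the window ends. MIR205, MIR221, MIR222, MIR146A and MIR10B had no listed peak within 1 kb either, though 6 open peaks lay within 10 kb of MIR221. MIR31 lies inside the chromosome 9 gap and had no open peak within 10 kb.

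Genome-wide, the most accessible gene starts per length were not lineage genes. Among start peaks of at least 150 bp, SPATC1L ranked first with 152 and 141 CPM per kb, then WDR74, a ribosome assembly factor, with 120 and 115, and ABHD2 with 112 and 107. STT3A, ZNF584, TEDC1, FAM131A, CIC, ALCAM, KMT5C, UBP1, ANKHD1 with its readthrough record ANKHD1-EIF4EBP3, and GNAI2 followed between 109 and 88.1 CPM per kb. On the CPM scale the highest were WDR74 (151 and 144 CPM), UBP1 (127 and 121), NFYA with OARD1 (121 and 122) and GOLIM4 (121 and 115). CCDC85B with FOSL1 (112 and 114), G3BP1 (112 and 108) and POLG with POLGARF (102 and 116) followed. FOSL1 was read at either end, and the peak at its other end had 35.7 and 35 CPM. Gene families chosen by symbol after values were seen ranged from ribosomal protein genes, open in 79 of 82, proteasome genes in 38 of 39 and ZNF zinc finger genes in 452 of 518, to claudins in 9 of 24, keratins in 12 of 55, olfactory receptors in 11 of 392 and taste receptors in 0 of 25. The longest run of neighbouring genes without a start peak held 61 genes on chromosome 11, mostly olfactory receptors.

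Most accessible sites were far from genes' starts. For the 4214 genes without a listed start, both ends of the record were taken as starts here. Peaks within 1 kb of a start so defined were 13.1% of peaks and held 29.6% and 29.6% of counts, with a median of 11.4 CPM per kb. Peaks 10 to 100 kb away were 46.5% of peaks and held 39.7% of counts in both samples, with a median of 4.83 CPM per kb. Peaks over 10 kb from any end of a protein-coding gene numbered 128010, and 12932 of them reached 10 CPM in both samples. The 10 highest of these had 4007 to 251 CPM in replicate 1. Of them, 8 lay at RefSeq mitochondrial-named pseudogenes on chromosome 1 between 629256 and 634903, nuclear copies whose reads cannot be told from mitochondrial DNA, and the other 2 at chr13:109424066-109424403 and chr17:22521257-22521617 had over 500 CPM per kb as well. All peaks at such pseudogenes together held 1.62% and 1.61% of counts. Peaks over 500 CPM per kb or at such pseudogenes were then left out, a choice made after seeing the data. The tallest distal site left, chr17:19063231-19064187 at SNORD3B-2, had 170 and 180 CPM. Sites at MTRNR2L12 and RNU1-1, among others, also ranked above those that follow by mean CPM. The site chr5:132094330-132095309, 18.2 kb past the end of CSF2, had 115 and 115 CPM. That was more than at the CSF2 start in both samples on either scale (117 against 35.8 CPM per kb). Inside COL15A1, 2 further sites were chr9:99050215-99051245 with 116 and 110 CPM and chr9:98989032-98990265 with 110.0 and 110 CPM. COL15A1, a basement membrane collagen, had no start peak, while 30 peaks over its body and flanks summed to 477 and 469 CPM.

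Accessibility per chromosome was uneven. Chromosome 19 had 95.3 peaks and 621 CPM per Mb between its first and last peak, and chromosome X 33.3 peaks and 140 CPM per Mb. The Y was left out of these values. Among the autosomes and the X, the X also had the lowest share of open genes, 54.2%, next to chromosome 21 with 56.1%. Chromosome 3 had the highest, 75.5%. The number of DNA copies of each chromosome enters these sums and was not tested.

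Open and shut starts differed in base composition. The observed to expected CpG ratio over 300 bases (250 before to 50 after the start) had a median of 0.306 at 4022 starts without a peak, 0.344 at 484 low starts, 0.79 at 2621 starts open below the strong level and 0.854 at 8345 strongly open ones. Where the ratio was under 0.4, 25.7% of 3648 genes were open, against 84.8% of 11824 others. For a gene with a peak the listed start nearest to it was used, so the start read was in part chosen by the peak. The ETS word (CCGGAAG) occurred before 17.2% of strongly open starts and 2.56% of starts without a peak, the GC box (GGGCGG) before 71.5% and 28.5%, and the TATA box before 4.64% and 19.2%. The AP-1 word occurred before 18.9% of the 419 strongly open starts with few CpG, 10.1% of the 2710 starts with few CpG that were not open, and 3.07% of the 10028 open CpG-rich starts. The 938 open genes with few CpG included, after POLGARF (which shares the POLG peak), SH3TC2 at 78.6 and 77.6 CPM, GNAI2, a G protein subunit, at 82.6 and 72.4, DYNLT4 at 76.4 and 77.2, SYNPO at 77.6 and 72.4, TRAF1 at 66.2 and 68.4, TREX1, a DNA exonuclease that limits innate sensing, at 61.7 and 56, RIN1 at 58.9 and 58.3, and MAP2K3, a kinase that activates p38, at 57.4 and 59.6.

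**Figure D4:**
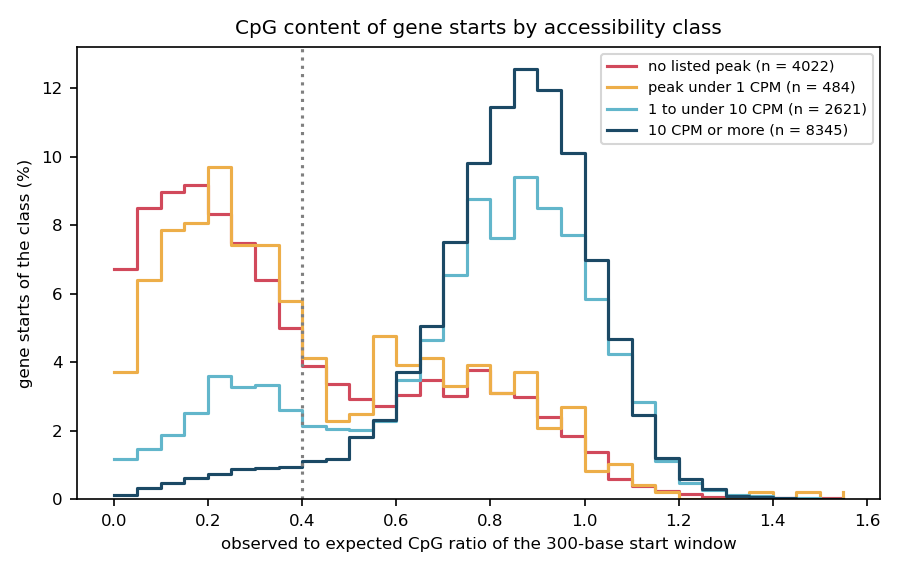
CpG content of gene starts by accessibility class: observed to expected CpG ratio of the 300-base window (x axis) against the share of starts of that class (y axis, %), with 1 line per class and the few-CpG limit of 0.4 dotted. Starts of 10 CPM or more centre on a ratio near 0.854, and 60.6% of starts without a listed peak lie under 0.4.

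The control samples gave close values. Across the 14598 genes with a peak, log2(CPM + 0.1) correlated at Pearson r = 0.983 and Spearman rho = 0.988 (across genes within 1 pair of libraries, which are not independent replicates), and the median coefficient of variation over the 2 samples was 6.11%. Agreement depended on depth: 19.9% of peaks under 1 CPM differed over 2-fold between the samples, 3.27% of those from 1 to 10 CPM and 0% of those at 10 CPM or more. Low values such as those of CDH1, CXCL10 or TWIST1 are therefore known less precisely than those of VIM or FOSL1. Of genes with a peak, 22.9% had it in the start window of another gene too, and such a level belongs to both.

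**Figure D5:**
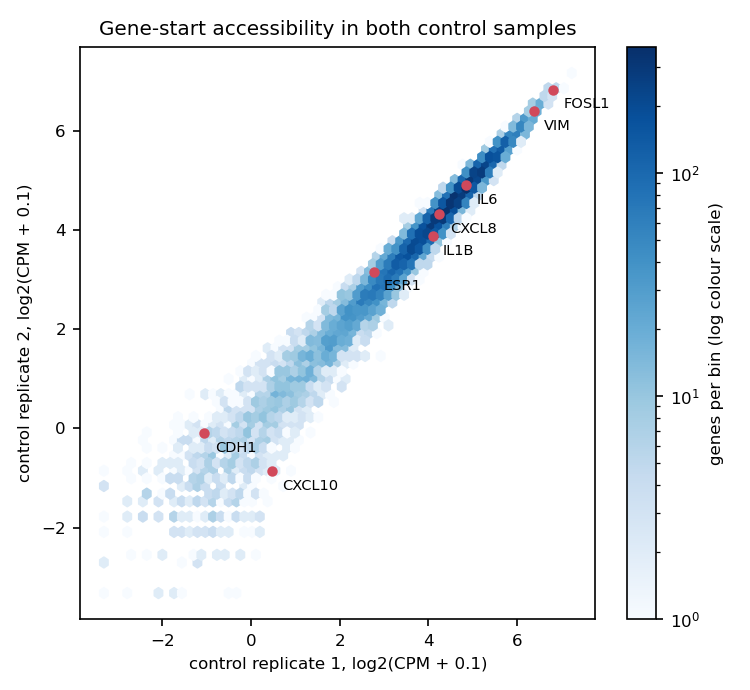
Level at the tallest start peak of each gene in control replicate 1 (x axis) and replicate 2 (y axis), both as log2(CPM + 0.1). Genes with no start at hand, FOSL1 and CDH1 among them, are shown at the tallest peak of either end. Colour gives the number of genes per bin, and 8 named genes are in red. The cloud narrows from CXCL10 and CDH1 at the low end to VIM and FOSL1 at the high end.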

How the data were processed

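ATAC-seq libraries were made from 50000 LM2 cells each, and the 2 control libraries were used. The authors deposited raw counts per peak, made with featureCounts per the file headers. Its inputs were cut-site alignments, in which both ends of a fragment can be counted. Per the submitters' processing notes, deepTools 3.1.3, MACS2 2.2.4, DESeq2 1.32, SAMtools, Bowtie2, CASAVA and Trimmomatic 0.39 were employed, with no roles or order. DESeq2 was not run here.

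No source used here names the genome build. With RefSeq genes of GRCh38.p14, 74.6% of 15842 genes had a peak within 1 kb of a start, against 21.2% and 21.4% when shifted by 100 kb, so that annotation was used. The promoter table is not complete, and the 5′ end of the gene record was added to its starts. All 619 entries (591 genes) of 30 lists matched by symbol, 186 of them read at either end. Peaks on chromosome 1 that start under 250000 were dropped before scaling.

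The scope, the members and the lists were chosen with earlier results of these data known. Named genes are, per list, the 3 highest and 3 lowest members by mean CPM and members without a peak where there are 12 or fewer, with genome-wide the 15 genes highest in CPM per kb, the 10 highest in CPM, the 10 highest distal peaks, the 20 highest open genes with few CpG, and a fixed set (CECR2, VIM, CDH1, ESR1, EGFR, FOSL1, CXCL8, IL6, IL1B, CSF1, CDKN2A). Other genes were named for their role, after values were seen. Some listed items are given as counts only, and a few named by the rule are not reported here. The mapping was tested on simulated data. Python 3.11.15, pandas 2.3.3 and, for TMM factors, edgeR 4.0.16 were used. Alternatives covered scaling, thresholds, windows and each replicate alone. Counting precision follows from the medians of 35 and 26 counts per peak, and cut ends of 1 fragment are not independent.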

Additional observations from a re-analysis of the deposited data

Results flagged for a closer look

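The 109 peaks dropped at the start of chromosome 1 (starts under 250000) held 17.9% of the deposited control counts on average, 18.0% in replicate 1 and 17.9% in replicate 2. They are data that the comparisons above do not use and carry a large signal. The highest of them, from position 30 to 4144, held 6.90% and 6.86% of all deposited counts of the replicates. The dropped peaks end at position 233254, and the origin of their counts was not tested.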

How the results depend on the processing

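The numbers of open genes (13351 to 14458) and, but for 2 settings, of strongly open genes (9202 to 12289) stayed within 1.5 times their values under TMM scaling, a library size with the chromosome 1 peaks kept in, other thresholds, windows of 500 and 2000 bp, summed peaks, either end of every gene and each replicate left out. Strongly open genes fell to 5844 at 20 CPM and to 5238 at 20 CPM per kb. The share of counts near starts (or either end where no start was known) was 27.49% with 500 bp and 32.2% with 2000 bp. It was 29.59% to 29.65% with 1 replicate left out. Of the 15 genes highest in CPM per kb, 4 were among the 15 highest in CPM. Open genes with few CpG numbered 468 at a ratio under 0.25. Of the 30 lists, 18 had an open share above that of all genes, and 18 to 20 did under the alternatives. A median level above that of all genes was found for 13 lists, and for 12 to 16 under the alternatives. Open counts per list moved by over 1.5 times in 4 of 330 recounts: muscle genes (1 at 2 CPM), fibroblast genes (3 with 500 bp), endothelial genes (4 with 2000 bp) and germline genes (1 with 2000 bp). Levels of 9 fixed genes moved by more than 1 SD in 7 of 36 recounts, each with the chromosome 1 peaks kept in the library size. List medians moved by more than 1 SD between samples in 60 of 179 recounts. No paired analysis was possible because only 1 group is used.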

Other observations

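Among the 12 windows of 100 kb with the highest summed CPM, those of over 20 peaks that overlap genes are given here. Over all windows with a peak, the median was 6 peaks and 22.2 CPM. The window over NBR1, TMEM106A and CCDC200 on chromosome 17 held 29 peaks with 649 and 652 CPM in replicates 1 and 2. The window over LRSAM1 and NIBAN2 on chromosome 9 held 32 peaks with 482 and 498 CPM. Neighbouring windows on chromosome 17, over GRAPL and over SLC5A10, FAM83G and GRAP, held 33 peaks with 483 and 495 CPM and 30 peaks with 443 and 456 CPM. In the window over GRAP, a single peak at SNORD3B-2, chr17:19063231-19064187, held 170 and 180 CPM of these sums. The window over PLEC, PARP10 and GRINA held 37 peaks with 456 and 464 CPM. The window over TNIP1 and GPX3, which encodes an extracellular glutathione peroxidase, held 28 peaks with 448 and 439 CPM.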
